A study of Mus musculus with 51 samples.

Results

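Regions of 5-hydroxymethylcytosine (5hmC) that MC3T3-E1 osteoblasts gained with VitC and that the peak lists of femoral bone did not hold were described. Such a region is a peak of the hMeDIP-seq list of VitC+ MC3T3-E1 cells on chromosomes 1 to 19 with a -log10 q of at least 5 that shares not even 1 bp with a peak of VitC- MC3T3-E1 cells, of VitC+ femurs or of Ctrl femurs. The q-value is the false discovery rate that the peak caller gave each peak, and a higher -log10 q means a stronger peak. Of 198375 VitC+ peaks at this threshold, 118399 had no VitC- peak, and 33782 of these, or 28.5%, were in neither femur list. These 33782 are 17.0% of the VitC+ peaks at the threshold and are called femur-absent regions here, and all 10 peak lists of the series together hold 1972767 peaks. The regions were chosen by their measured values in these 4 lists, so their presence in VitC+ cells and absence elsewhere is a description and not a result. For comparison, the other VitC+ peaks at the threshold were divided into 84617 gained peaks that a femur list also holds (femur-shared gained peaks) and 79976 peaks that overlap a VitC- peak (kept peaks).

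MC3T3-E1, subclone 4, is a pre-osteoblast line from mouse calvaria that mineralizes in culture, and its hMeDIP-seq samples were taken on day 28 with VitC at 50 or 0 µg/ml, with 2 samples per group. Femurs, decalcified for DNA and flushed of marrow for RNA, came from Gulo-/- mice, which cannot make VitC, at 20 weeks of age, given VitC throughout (VitC+) or only up to week 15 (VitC+/-), with 3 samples per group. Ctrl femurs carry Prrx1-Cre without floxed Tet alleles and Tet1/2 cKO femurs carry Prrx1-Cre with Tet1/2 fl/fl, both at 11 weeks of age with 3 samples per group, and Prrx1-Cre is active in limb bud mesenchyme and its descendants, not in blood cells. Femur RNA-seq was available for VitC+, VitC+/- and wild type mice (WT), with 3 libraries each at 20 weeks. All samples of a group were pooled for peak calling, so a region has 1 value per list and no error between replicates. H3K27me3 and H3K9me3 lists of MC3T3-E1 cells are also pooled from 2 samples each.

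TET enzymes oxidize 5-methylcytosine to 5hmC with iron and 2-oxoglutarate, and VitC keeps their iron in the reduced state. 5hmC marks gene bodies of transcribed genes and the surroundings of enhancers, while H3K27me3 is the mark of Polycomb-repressed developmental genes and H3K9me3 that of heterochromatin. Bones of the skull vault form largely from cranial neural crest and head mesoderm without a cartilage model, whereas the femur forms from limb mesoderm through cartilage and holds osteocytes, osteoclasts, vessels and residual marrow beside osteoblasts.

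The 6 strongest femur-absent regions are shown by the 300 bases around their midpoint, because they have the highest -log10 q of the set and lie in different gene contexts. The bases are those of the + strand of GRCm38.p6 (mm10) from RefSeq in lower case, with the letters of each CpG, the dinucleotide that TET enzymes act on, in capitals.
Flt1 promoter, chr5:147726962-147727261: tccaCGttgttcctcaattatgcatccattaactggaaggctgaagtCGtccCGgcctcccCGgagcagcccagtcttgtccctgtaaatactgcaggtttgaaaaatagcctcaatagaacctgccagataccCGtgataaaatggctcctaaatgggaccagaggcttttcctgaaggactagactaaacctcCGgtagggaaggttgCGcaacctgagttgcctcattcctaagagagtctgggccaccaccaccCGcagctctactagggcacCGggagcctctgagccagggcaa
Tfap2b downstream region, chr1:19240459-19240758: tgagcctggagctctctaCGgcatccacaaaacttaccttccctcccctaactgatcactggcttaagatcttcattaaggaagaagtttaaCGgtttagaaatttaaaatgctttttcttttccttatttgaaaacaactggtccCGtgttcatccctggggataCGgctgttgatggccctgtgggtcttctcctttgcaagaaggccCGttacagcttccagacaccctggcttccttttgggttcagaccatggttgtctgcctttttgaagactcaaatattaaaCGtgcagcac
Zfp281 promoter, chr1:136624035-136624334: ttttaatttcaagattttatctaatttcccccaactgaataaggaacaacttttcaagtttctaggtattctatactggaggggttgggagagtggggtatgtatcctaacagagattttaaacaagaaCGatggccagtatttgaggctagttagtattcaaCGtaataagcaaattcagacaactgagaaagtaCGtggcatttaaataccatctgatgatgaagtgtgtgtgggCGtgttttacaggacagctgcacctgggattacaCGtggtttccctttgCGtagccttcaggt
Gm35541 intron, chr5:147747697-147747996: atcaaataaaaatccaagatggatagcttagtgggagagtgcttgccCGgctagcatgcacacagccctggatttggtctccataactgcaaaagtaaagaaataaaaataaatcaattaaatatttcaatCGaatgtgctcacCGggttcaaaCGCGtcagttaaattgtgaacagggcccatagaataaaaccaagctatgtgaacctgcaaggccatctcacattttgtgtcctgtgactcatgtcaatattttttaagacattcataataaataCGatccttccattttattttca
Vps13b intron, chr15:35636570-35636869: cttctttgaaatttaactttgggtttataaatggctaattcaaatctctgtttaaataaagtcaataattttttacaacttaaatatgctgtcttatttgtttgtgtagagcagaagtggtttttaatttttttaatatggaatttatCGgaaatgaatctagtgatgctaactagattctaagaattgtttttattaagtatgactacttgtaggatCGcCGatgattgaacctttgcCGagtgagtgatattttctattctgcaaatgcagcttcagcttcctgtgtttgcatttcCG
Fbn1 exon, chr2:125346253-125346552: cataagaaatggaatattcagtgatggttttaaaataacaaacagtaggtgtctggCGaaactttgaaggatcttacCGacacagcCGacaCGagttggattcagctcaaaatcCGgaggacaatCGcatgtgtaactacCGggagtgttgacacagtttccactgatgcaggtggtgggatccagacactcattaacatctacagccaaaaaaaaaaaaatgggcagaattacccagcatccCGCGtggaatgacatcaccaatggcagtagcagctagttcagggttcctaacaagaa
These windows hold 9, 6, 6, 6, 5 and 9 CpG in the order shown, and their GC content ranged from 30.7% in Vps13b to 53.3% in the Flt1 promoter. They were picked by -log10 q and not by their sequence.

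The strongest region lay at chr5:147726639-147727584 in the promoter of Flt1, which encodes VEGF receptor 1, with its midpoint 674 bp from the transcription start site (TSS), a fold enrichment of 28.5 over the local background and a -log10 q of 138. Another, the fourth by rank, lay 21409 bp from the same TSS in an intron of the noncoding gene Gm35541, at chr5:147747535-147748158, with a fold of 23.2 and a -log10 q of 104. Both belong to a group of 10 femur-absent regions that spans 46.9 kb, in which fold ranged from 4.82 to 28.5. The region next in rank to the Flt1 promoter, chr1:19239816-19241402, is 1587 bp long and lay between genes, 28555 bp from the TSS of Tfap2b, the gene of a transcription factor of neural crest and kidney, with a fold of 25.04 and a -log10 q of 116. Zfp281, the gene of a zinc finger factor of pluripotent cells, had a region with a fold of 23.4 at chr1:136623745-136624624 in its promoter, 716 bp from the TSS. The nearest peak of the VitC- and femur lists was 1241 bp from the Zfp281 region and 1739 bp from the Flt1 promoter region, whose nearest femur peak was 4653 bp away.

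A region in an intron of Vps13b, which encodes a lipid transfer protein of the Golgi, had a fold of 19.7 at chr15:35636336-35637104 and was 265602 bp from the TSS of the gene. The strongest region in an exon overlapped a coding exon of Fbn1, the gene of the microfibril protein fibrillin-1, at chr2:125346017-125346789, with a fold of 20.6 and a -log10 q of 98.7. Introns of 1700060C16Rik (fold 15.5) and of Glis3, the gene of a Krüppel-like zinc finger factor (fold 18.3), held the regions ranked 7 and 9, and the region ranked 8 lay in an intron of Snapc4 and an exon of the noncoding Gm13562 (fold 21.8). The region ranked 10 lay in the promoter of Ebf1, a factor of B cells and of mesenchymal cells, 349 bp from the TSS at chr11:44619418-44620340, with 10 CpG in the 200 bp around its midpoint and a fold of 21.1. Peaks of the VitC- list and of both femur lists came within 325 bp of this Ebf1 region. None of these 10 regions overlapped a histone peak, and 1 of them, in Gm35541, overlapped a peak of VitC+/- femurs.

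Most femur-absent regions were far weaker than these. Their median fold was 4.82 with quartiles of 4.13 and 5.97, their median -log10 q was 9.17, and the median height of the read pileup at the summit was 22 reads. The femur-shared gained peaks had a median fold of 5.64 and a median -log10 q of 11.6, and kept peaks 7.81 and 20.9. Length differed in the same order, with medians of 400 bp in femur-absent regions, 584 bp in femur-shared gained peaks and 918 bp in kept peaks. The rule removed a peak on 1 bp of overlap, which a longer peak meets more readily, so the order of length is in part built in. In all, femur-absent regions covered 16.3 Mb, against 61.6 Mb for femur-shared gained peaks. At the threshold itself, the weakest femur-absent regions had a -log10 q of 5.00343 with a pileup of 16 reads, and the strongest peaks left out had 4.9984 with a pileup of 21 reads. The threshold left out 17277 peaks that met every other condition.

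The share of VitC+ peaks that were femur-absent declined with strength from 27.2% at a -log10 q of 5 to 10 to 17.3% at 10 to 20, 7.52% at 20 to 40 and 1.99% above 40. By length it went from 42.4% under 300 bp to 4.45% from 800 bp on. Of gained peaks alone it went the same way, from 49.9% to 11.4% over the length classes. Longer peaks meet the 1 bp rule more readily, so a decline with length is in part built in. Stronger femur-absent regions were also longer, with a median of 347 bp at a -log10 q of 5 to 10 and 710 bp above 40. Read depth of the lists is not known, and the part that length, depth and the caller's threshold had in the absence of a femur peak was not tested.

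**Figure D1:**
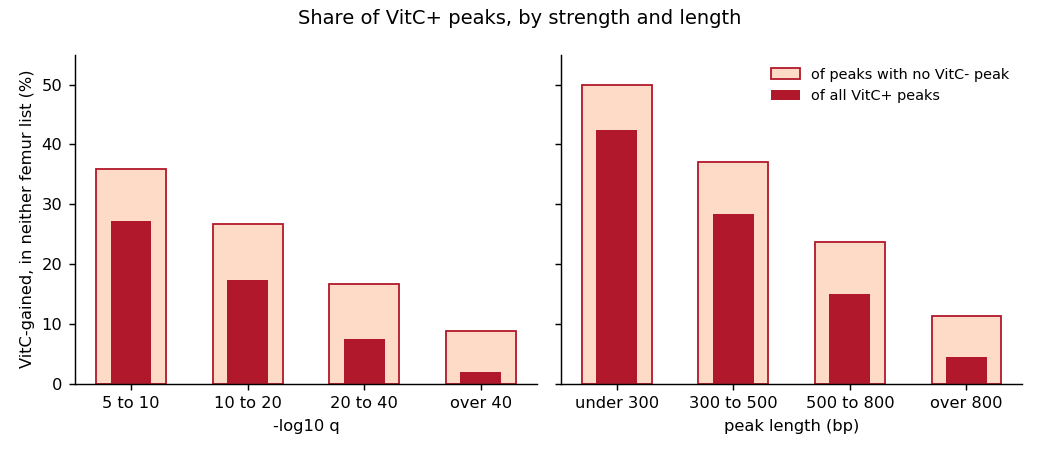
Share of VitC+ MC3T3-E1 peaks that were VitC-gained and in neither femur list (y axis, percent) by -log10 q (left) and by peak length in bp (right). Dark bars are shares of all VitC+ peaks at the threshold and light bars shares of those with no VitC- peak, and both decline from left to right, in dark bars from 27.2% to 1.99% and from 42.4% to 4.45%. Longer peaks meet the 1 bp overlap of the rule more readily.

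Femur peaks were often close by. The median distance from a femur-absent region to the nearest peak of either femur list was 1052 bp, and 48.4% had such a peak within 1 kb, while 2.67% had none within 10 kb. To the nearest peak of VitC- cells the median distance was 2000 bp. Taking the VitC- and both femur lists together, the nearest peak was 787 bp away in the median, and 181 regions lay more than 10 kb from every peak of the 3 lists.

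Femur-absent regions lay between genes more often than the other gained peaks. Of the 33782, 41.1% (40.6 to 41.6%, Wilson 95% interval, counting error only) were intergenic, against 24.4% of femur-shared gained peaks and 34.8% of kept peaks. Introns held 46.8% of them, against 61.0% and 55.7%. Promoters, within 1 kb of a TSS, held 6.83% and exons 5.31%, and 577 regions (1.71%) had their midpoint in a coding exon outside promoters. The share more than 30 kb from every TSS was 37.5%, against 29.2% of femur-shared gained peaks, and the median distance to the nearest TSS was 19243 bp against 14459 bp. Peaks have no replicates and no test was made. The rule divides gained peaks by femur 5hmC, so their location depends in part on where the femur lists hold peaks. This also holds among peaks of like strength or length, where the intergenic share differed likewise. Within the 4 classes of strength it was 38.3 to 41.2% in femur-absent regions and 19.4 to 25.7% in femur-shared gained peaks, and within the 4 classes of length it was 40.7 to 42.9% and 21.9 to 26.8%.

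**Figure D2:**
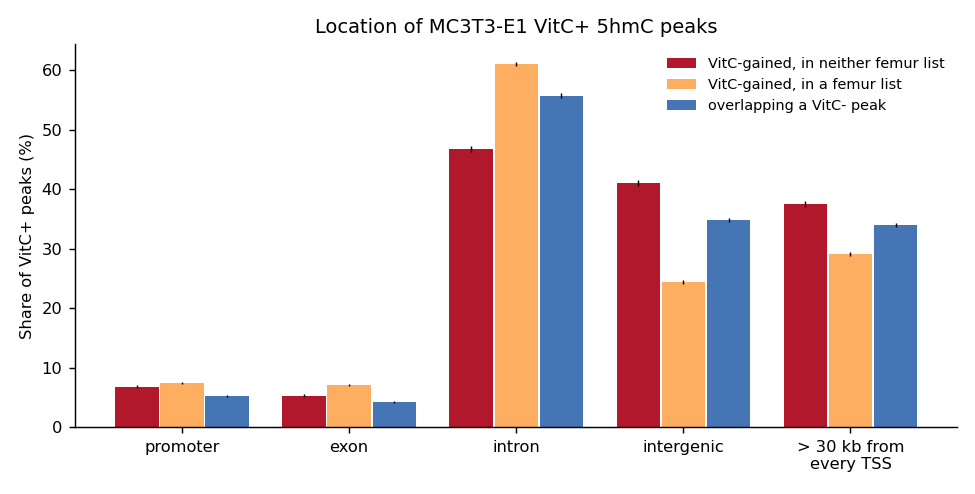
Share of VitC+ MC3T3-E1 peaks at the threshold (y axis, percent) by location of the midpoint, for femur-absent regions (dark red), femur-shared gained peaks (orange) and peaks that overlap a VitC- peak (blue), with Wilson 95% intervals for counting error as lines. Femur-absent regions stand higher between genes (41.1% against 24.4% and 34.8%) and lower in introns (46.8% against 61.0% and 55.7%). The rule removed peaks of the VitC+ and Ctrl femur lists, so location depends in part on the rule.

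In the 200 bp around the midpoint, femur-absent regions had a median of 1.5 CpG per 100 bp, as did femur-shared gained peaks, against 1 in kept peaks and 0.851 over chromosomes 1 to 19. Over whole peaks the order was another, with 1.19 in femur-absent regions, 1.39 in femur-shared gained peaks and 1.18 in kept peaks. Median GC content was 44.5%, against 41.9% over the chromosomes. A window with 0 CpG was found in 1342 regions (3.97%), and 2796 regions (8.28%) had at least 6 CpG, against 11.4% of femur-shared gained peaks and 6.46% of kept peaks. Windows of which more than 50% was masked as repeats made up 12.7% of femur-absent regions, 9.91% of femur-shared gained peaks and 11.3% of kept peaks. Short motifs of factors of mesenchymal cells were counted on both strands of the same windows. The RUNX motif TGTGGT, the core site of the osteoblast factor RUNX2, was in 20.3% of femur-absent regions (19.9 to 20.8%), 19.1% of femur-shared gained peaks and 18.9% of all VitC+ peaks at the threshold. In windows with a GC content of at least 50% the order turned, with 19.6% in femur-absent regions and 20.6% in femur-shared gained peaks. The AP-1 motif TGANTCA was in 8.20%, against 7.47% of all VitC+ peaks, and the TEAD motif GGAATG in 13.1%, against 12.3%. Homeodomain TAATTA (5.62% against 5.72%) and GC box GGGCGG (2.77% against 2.99%) were not more frequent than in all VitC+ peaks. A match is a string of letters and not a shown site.

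The remaining femur 5hmC lists, which did not select the regions, also held few of them. Peaks of VitC+/- femurs overlapped 1886 femur-absent regions (5.58%) and peaks of Tet1/2 cKO femurs 318 (0.941%), with 15 in both, so that 93.5% were in no femur list. The shares among femur-shared gained peaks were 45.9% and 48.5%. These lists are not independent of the rule, since a femur list shares many of its peaks with the VitC+ and Ctrl femur lists that were removed. The 467 femur-absent regions with a -log10 q above 40 were in the VitC+/- femur list more often (11.8%) than those of 5 to 10 (5.23%), as was so for all VitC+ peaks (67.1% and 32.4%).

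H3K27me3 peaks of VitC- cells overlapped 2562 femur-absent regions, or 7.58% (7.31 to 7.87%), against 5.67% of femur-shared gained peaks and 5.61% of kept peaks. This overlap depended on peak strength, and at a -log10 q of 5 to 10, which holds 19726 of the regions, it was 8.40% in femur-absent regions and 8.08% in all VitC+ peaks, with 7.00% and 6.21% at 10 to 20, 4.87% and 4.20% at 20 to 40 and 4.71% and 2.02% above 40. Under 300 bp of length it was 8.04% and 7.93%. In promoters the shares were 11.4%, 7.46% and 8.19%, in introns 5.68%, 3.81% and 4.29%, whereas between genes femur-absent regions were at 9.11%, under the femur-shared gained peaks at 10.1%. H3K27me3 peaks of VitC+ cells overlapped 5.28% of femur-absent regions. Of the 2562 regions in the VitC- list, 1127 (44.0%) were not in the VitC+ H3K27me3 list, which was close to the 45.4% of femur-shared gained peaks and the 44.1% of kept peaks. H3K9me3 peaks of VitC- cells overlapped 4.44% of femur-absent regions, 3.21% of femur-shared gained peaks and 4.45% of kept peaks. For VitC+ cells the shares were 1.94%, 1.14% and 1.63%. Of the femur-absent regions in the VitC- H3K9me3 list, 64.9% were not in the VitC+ list, against 71.0% of femur-shared gained peaks and 69.3% of kept peaks. Neither mark in either culture was called on 29522 regions (87.4%), and 240 regions had both marks in VitC- cells. The VitC+ lists are also the smaller ones by covered length, at 145 against 233 Mb for H3K27me3 and 43.1 against 66.1 Mb for H3K9me3.

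**Figure D3:**
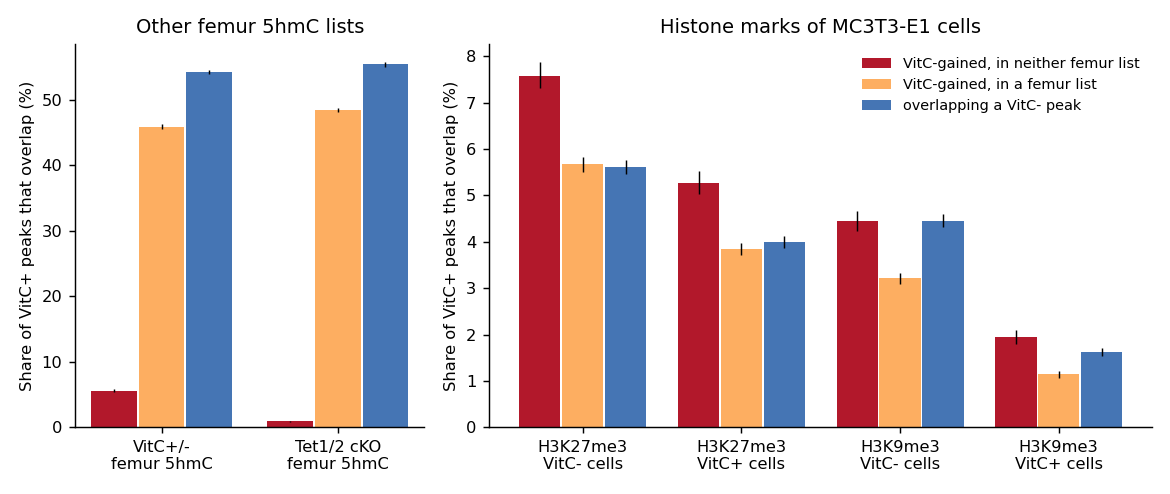
Share of VitC+ MC3T3-E1 peaks (y axes, percent) that overlap 5hmC peaks of VitC+/- and Tet1/2 cKO femurs (left) and histone peaks of VitC- and VitC+ MC3T3-E1 cells (right), in femur-absent regions (dark red), femur-shared gained peaks (orange) and kept peaks (blue), with Wilson 95% intervals. Femur-absent regions are at 5.58% and 0.941% on the left and are highest for H3K27me3 (7.58% in VitC- cells).

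Femur-absent regions were also joined into groups. Other VitC+ peaks were not joined in this way, so the grouping is not shown to be particular to these regions. The nearest other femur-absent region was 7741 bp away in the median, and the nearest VitC+ peak of another class, at any strength, 1601 bp. Joined over short gaps, they formed 19627 groups, of which 12736 were single regions and 904 held at least 5, with 6235 regions (18.5%) in the latter. Regions in groups of at least 10 were longer (median 485 bp) than single ones (378 bp), and fewer of them overlapped H3K27me3 of VitC- cells (3.94% against 9.12%). The largest group, chr13:36854539-37044718, had 47 femur-absent regions among 81 VitC+ peaks over 190 kb, all 47 within genes, around F13a1, which encodes the A subunit of coagulation factor XIII, a transglutaminase. Folds there ranged from 3.85 to 16.0. At Pax3, a regulator of neural crest and muscle precursors, 28 of 59 peaks over chr1:78066137-78203748 were femur-absent, with folds up to 17.5. Groups of 21 of 37 peaks at Lama4 and Fam229b (chr10:39038977-39120438), of 20 of 41 at Ky, Cep63 and Anapc13 (chr9:102544160-102631734) and of 20 of 39 at Trp63, the gene of the epithelial master factor p63 (chr16:25705937-25791207), came next. None of the regions at F13a1, Pax3, Lama4 and Trp63 overlapped H3K27me3 of VitC- cells, and the same stretches did hold femur 5hmC, with 30 VitC+ femur peaks over the F13a1 group and 24 over the Pax3 group.

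Of 20558 coding genes, 10411 (50.6%) had at least 1 femur-absent region within 30 kb of the TSS and 758 (3.69%) at least 5. Of the 15 genes with the most, 9 were keratin and keratin-associated genes of hair and skin on chromosome 11, Krtap1-5 with 14, Krt40, Krtap3-1, Krtap1-4 and Krtap1-3 with 13 each and Krtap3-2, Krtap3-3, Krtap9-3 and Krt23 with 11 each. Their windows overlap, and together they held 30 different femur-absent regions among 49 VitC+ peaks, with folds from 3.66 to 10.8 and no H3K27me3. Omd, which encodes osteomodulin, a keratan sulfate proteoglycan of bone matrix, had 13 of 26 peaks, and Orm1, an acute phase plasma protein gene, 12 of 20. Sp8, a factor of the limb apical ectoderm, had 11 of 12 peaks, of which none was a femur-shared gained peak. Klhdc8a (11 of 20), Aqp2, the water channel of the kidney collecting duct (11 of 23), and Fam83c (11 of 15) completed the 15. Six2 also had 11 and fell outside the 15 by its lower summed fold enrichment, which decided ties. Among these 15 genes only Omd and Orm1 passed the RNA filter in femurs. Of the 9 keratin and keratin-associated genes, all but Krt23 were listed at 0 in all 9 libraries, and Krt23 was at 0 to 0.0568 RPKM.

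The share of nearby VitC+ peaks that were femur-absent differed widely between gene lists. The rule removed peaks that a VitC+ or Ctrl femur list holds, so these shares depend in part on femur 5hmC near the genes. Kept peaks, which cannot be femur-absent, count among the VitC+ peaks. Craniofacial and neural crest regulators had 98 femur-absent regions among 266 peaks (36.8%), against 17.0% of all VitC+ peaks. Six2, a factor of nephron and craniofacial progenitors, had 11 of 17 peaks, Pax3 10 of 18, and Dlx1 and Dlx2, homeodomain factors of the branchial arches, shared 11 of 20 with folds from 4.00 to 15.0. Hox genes, which pattern the trunk and limbs, also had 36.8% (42 of 114), with 17 of 56 around the Hoxa cluster, 8 of 21 around Hoxb, 13 of 32 around Hoxc and 4 of 5 around Hoxd. H3K27me3 of VitC- cells overlapped 6 of the 17 Hoxa and 7 of the 8 Hoxb regions but none of the 13 Hoxc and 4 Hoxd regions. Of all VitC+ peaks there it overlapped 11 of 56 at Hoxa, 14 of 21 at Hoxb, 2 of 32 at Hoxc and 1 of 5 at Hoxd. For the single genes named here and below, the mark on the other VitC+ peaks nearby is not given. At the posterior end of Hoxa, Hoxa10, Hoxa11 and Hoxa13 each had 9 regions of 18 peaks in overlapping windows, 6 of the 9 with H3K27me3, and Hoxc12 had 9 of 15.

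Osteoblast genes had lower shares, which is a description under a rule that removes femur peaks and not an independent result. Bone60, a set of bone-selective genes that the study derived from RNA-seq of many tissues, had 68 femur-absent regions among 615 peaks (11.1%), osteoblast transcription factors 44 of 339 (13.0%) and mineralization genes 25 of 251 (9.96%). Runx2, the master factor of the osteoblast, had 4 femur-absent regions of 25 peaks. They included chr17:44806404-44807027 in an intron, 8.08 kb downstream of the TSS, with a fold of 10.0. Dlx3 had 4 of 22, and Bglap and Bglap2, the osteocalcin genes, shared 4 of 21, while 12 of the 21 were femur-shared gained peaks. Actin cytoskeleton and cell adhesion genes had the lowest share (66 of 737, 8.96%), followed among further lists by TGF-beta and BMP signalling (60 of 507, 11.8%), skeletal muscle (15 of 109, 13.8%), fibrillar matrix and collagen processing (67 of 451, 14.9%), osteoclast (17 of 111, 15.3%) and cartilage matrix (22 of 140, 15.7%). Of gained peaks alone, fibrillar matrix had 67 femur-absent and 162 femur-shared, and Bone60 68 and 257, against 33782 and 84617 in all. TET and DNMT enzymes (12 of 65, 18.5%), blood and marrow cells (28 of 147, 19.05%), Wnt signalling (133 of 675, 19.7%) and adipocyte genes (41 of 200, 20.5%) were close to all VitC+ peaks. Neuronal genes had the highest share but few peaks, with 10 of 26 (38.5%), 5 of them at Cacna1a, a calcium channel gene whose 5 peaks were all femur-absent.

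**Figure D4:**
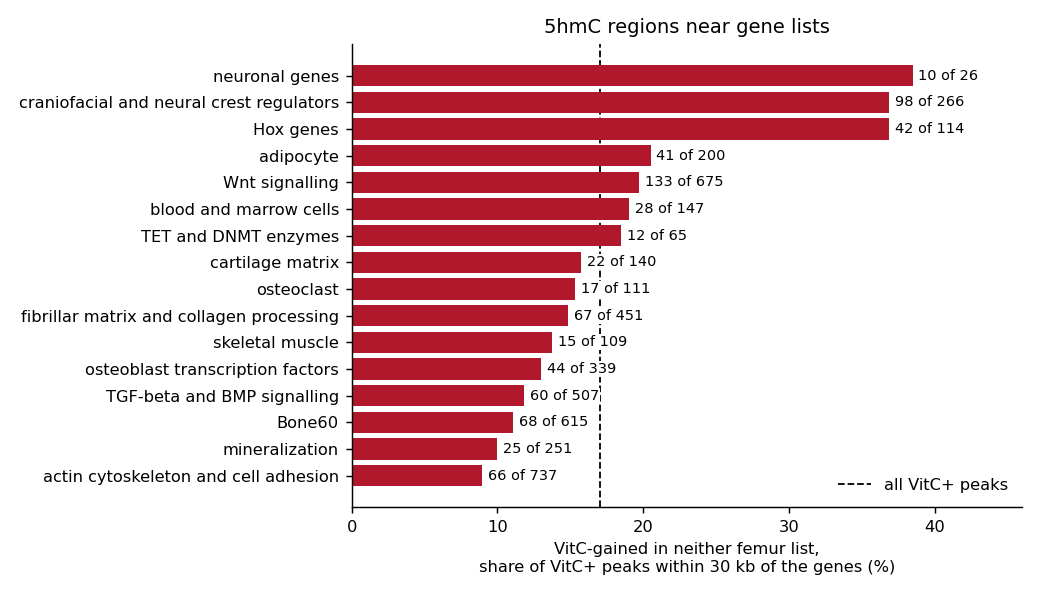
Femur-absent regions as a share of the VitC+ MC3T3-E1 peaks within 30 kb of the TSS of each gene list (x axis, percent), with the counts beside the bars and the 17.0% of all VitC+ peaks as a dashed line. Neuronal, craniofacial and Hox lists are at 36.8 to 38.5% and mineralization, Bone60 and actin lists at 8.96 to 11.1%. The VitC+ peaks include kept peaks, and the rule removed peaks of the VitC+ and Ctrl femur lists.

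The genes named next are those of their list with the most femur-absent regions, so they do not show the spread within a family. As a whole the lists were at 19.7% (Wnt signalling), 11.8% (TGF-beta and BMP), 14.9% (fibrillar matrix) and 20.5% (adipocyte). Of Wnt signalling genes, Sfrp2, a secreted Wnt inhibitor, and Dkk2, an inhibitor of the LRP co-receptors, had 10 femur-absent regions each, of 23 and 22 peaks, Nkd2, an inhibitor of Dishevelled, had 8 of 21 and the receptor gene Fzd2 7 of 20. Among TGF-beta and BMP genes, the ligand gene Gdf6 had 7 of 16, 5 of them overlapping H3K27me3 of VitC- cells. The BMP antagonist gene Nog had 4 of 7, all 4 overlapping H3K27me3. Gdf5, the joint ligand gene, had 4 of 8 and the receptor gene Bmpr1a 4 of 23, none with H3K27me3. Of matrix genes, Col3a1 had 8 of 19, Col5a3 6 of 11, Fbn1 6 of 16 and Col6a2 4 of 22. Pparg, the master factor of adipocytes, had 9 of 25, and of the other adipocyte genes Lep had 5 of 19, Cebpa 3 of 18 and Plin4 3 of 6.

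Femur RNA was used to ask whether genes near these regions changed when Gulo-/- mice went without VitC. Values are RPKM, reads scaled to transcript length and library size, and each change is VitC+/- minus VitC+ on the scale of log2(RPKM + 0.5), which understates changes of low genes, tested with limma over all genes with Benjamini-Hochberg adjustment at 0.05. The depth of WT replicate 1, from the steps of low RPKM values, was 0.202 of that of VitC+ replicate 2, and the others were at 0.830 to 1.26. Gulo, the gene inactivated in the knockout, was listed at 0 in the library labelled WT replicate 3 and at 0.180 RPKM in the library labelled VitC+ replicate 1, against up to 0.0352 in the other knockout libraries, so that Gulo went against both labels. Summed osteoclast RPKM was 1011 in that WT library against 981 and 1048 in the others labelled WT, and 1608 in that VitC+ library against 2502 and 3085 in the others labelled VitC+. Osteocalcin genes Bglap and Bglap2 were above 30 RPKM in all VitC+ and WT libraries, which checks the tissue as bone. In bulk bone, fewer cells of a type and less RNA per cell cannot be told apart.

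Of 7312 tested genes with at least 1 femur-absent region, 524 were lower in VitC+/- femurs (7.17%, background over all 12571 genes 7.96%) and 433 higher (5.92%, background 5.5%). Without the libraries labelled WT replicate 3 and VitC+ replicate 1, an alternative chosen after seeing the data, 81 were lower (1.12%, background over 12453 genes 1.4%) and 51 higher (0.703%, background 0.683%). Of 434 tested genes with at least 5 regions, 34 were lower (7.83%) and 28 higher (6.45%), with a median change of 0.01, and without both libraries 4 were lower (0.935%) and 6 higher (1.40%). All 34 and 28 had groups that did not overlap, for which the background over all genes was 7.95% and 5.5%. Of the 4287 tested genes with no femur-absent region, 405 were lower (9.45%) and 225 higher (5.25%). Of all coding genes with RNA values, 45.98% of those with no femur-absent region passed the RPKM filter. The share was 74.42% with 1 to 2 regions, 72.42% with 3 to 4 and 59.05% with at least 5. Only genes with 10 to 19 VitC+ peaks were also divided in this way, and there the share fell steadily as femur-absent regions rose in number. This order is not independent of the rule. At a like number of VitC+ peaks, more femur-absent regions leave fewer femur-shared gained or kept peaks, and 5hmC marks bodies of transcribed genes. Among genes with 10 to 19 VitC+ peaks, 88.0% of those with no femur-absent region passed the RPKM filter, 85.8% with 1 to 2, 77.5% with 3 to 4 and 58.3% with at least 5, and median RPKM in VitC+ femurs was 7.44, 6.83, 4.76 and 1.69 in the same order.

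The gene with the largest fall among those with at least 5 regions was Mgl2, which encodes a galactose-type lectin of macrophages. Its RPKM was 6.64, 10.2 and 8.80 in VitC+ libraries, 0.590, 1.38 and 0.637 in VitC+/- libraries and 9.83, 20.7 and 10.8 in WT libraries. All VitC+/- values lay below all others, and the log2 change was -2.86 (SE 0.27, adjusted p = 0.000709). Clec10a, its neighbour and paralog, had 21.0, 12.1 and 12.3 RPKM in VitC+ and 2.82, 6.34 and 2.42 in VitC+/- libraries, a change of -2.04 (SE 0.55, adjusted p = 0.0413). This call was lost in 8 of 16 alternatives, also without WT replicate 3 or without VitC+ replicate 1, with an adjusted p by limma of up to 0.182. Their windows on chromosome 11 overlap, and 2 of the 6 regions of Mgl2 are also among the 5 of Clec10a. One of these, chr11:70139493-70140089, is the strongest of either gene, with a fold of 7.12. Niban3, a gene of B cells, had 5.25, 8.12 and 12.2 RPKM in VitC+ and 1.21, 1.95 and 1.71 in VitC+/- libraries (log2 change -2.15, SE 0.35, adjusted p = 0.00722). Rerg, a RAS-like growth inhibitor, was at 9.76, 10.1 and 20.3 RPKM in VitC+ and at 2.32, 3.42 and 3.49 in VitC+/- libraries (log2 change -2.02, SE 0.43, adjusted p = 0.0190). Its 5 regions all overlapped H3K27me3 of VitC- cells. Tmem178, a negative regulator of osteoclast formation, was at 2.17, 2.32 and 2.96 RPKM in VitC+ and at 0.792, 0.453 and 0.508 in VitC+/- libraries (log2 change -1.56, SE 0.22, adjusted p = 0.00431). In Rerg the WT libraries, at 1.68 to 6.98 RPKM, overlapped those of VitC+/- femurs, and its call was lost without VitC+ replicate 1 or replicate 3 or VitC+/- replicate 1 (limma adjusted p up to 0.101).

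Blood and marrow markers, read beside Mgl2, Clec10a and Niban3, were lower too. Of 33 tested genes, 11 were lower (33.3%, background over all genes 7.96%) and 1 higher (3.03%, background 5.5%). Without WT replicate 3 and VitC+ replicate 1, 4 of the 33 were lower, with a background of 1.4%. Their summed RPKM was 26291 to 52758 in VitC+, 9776 to 29861 in VitC+/- and 54486 to 82276 in WT libraries, and none of the 33 was at 0 in all libraries. The B cell receptor gene Cd79b, with 3 femur-absent regions, had a log2 change of -1.98 (SE 0.37, adjusted p = 0.0118). The part of these cells in the change of Mgl2, Clec10a and Niban3 was not tested.

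The gene with the largest rise was Klf15, a Krüppel-like factor of metabolic and glucocorticoid response, all 8 of whose femur-absent regions overlapped H3K27me3 of VitC- cells. Its RPKM was 0.419, 0.405 and 0.804 in VitC+, 4.36, 14.1 and 1.27 in VitC+/- and 0.801, 0.332 and 0.275 in WT libraries. VitC+/- replicate 2 stood highest, and the change of 2.197 (SE 0.62, adjusted p = 0.0474) stayed past the threshold in 4 of the alternatives and lost it in 9, while whichever VitC+/- library was left out, replicate 2 among them, the gene missed the RPKM filter and was not tested. Adipocyte genes were highest in the same library, with a summed RPKM of 3931 against 522 and 560 in the other VitC+/- libraries and 475 to 728 in VitC+ libraries, and their part in Klf15 was not tested. Mt2, a zinc-binding metallothionein, was at 67.0, 64.9 and 82.2 RPKM in VitC+, at 275, 201 and 195 in VitC+/- and at 25.5 to 39.9 in WT libraries, with groups well apart and a log2 change of 1.49 (SE 0.20, adjusted p = 0.00392). Fnip2, a folliculin partner in AMPK and mTORC1 signalling, was at 2.17, 3.61 and 3.55 RPKM in VitC+ and at 13.5, 8.80 and 11.9 in VitC+/- libraries (log2 change 1.602, SE 0.20, adjusted p = 0.00245). Gpr176, an orphan receptor, was at 0.544 to 1.18 RPKM in VitC+ and at 3.20 to 6.13 in VitC+/- libraries (log2 change 1.66, SE 0.33, adjusted p = 0.0147). Inhbb, the activin beta B subunit, was at 1.199 to 2.02 RPKM in VitC+ and at 3.95 to 10.4 in VitC+/- libraries (log2 change 1.47, SE 0.35, adjusted p = 0.0265). The Inhbb call was lost in 5 of 16 alternatives, which left out a VitC+ library or VitC+/- replicate 1 (limma adjusted p up to 0.0967).

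**Figure D5:**
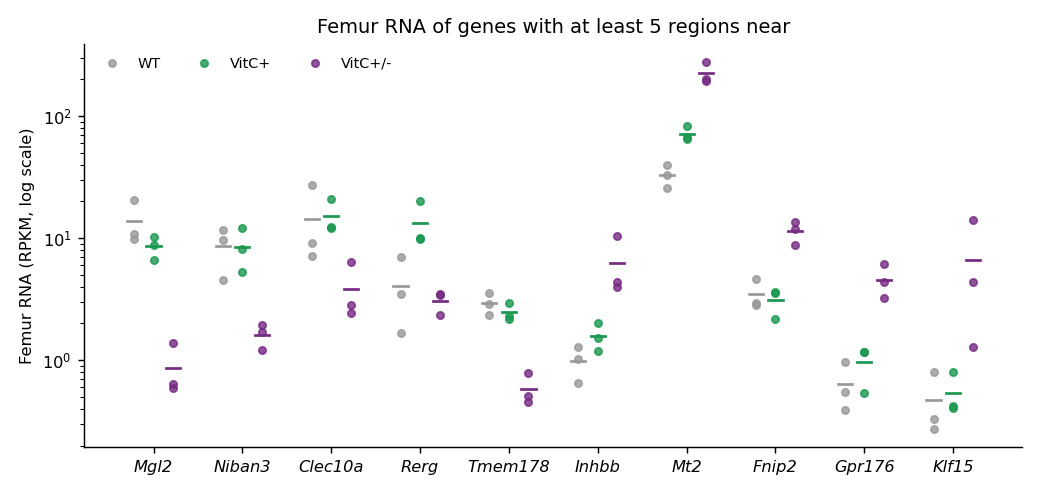
Femur RNA (y axis, RPKM on a log scale) of the 5 genes with the largest falls and the 5 with the largest rises among genes with at least 5 femur-absent regions near, in 3 WT (grey), 3 VitC+ (green) and 3 VitC+/- (purple) libraries, with bars at the means. VitC+/- points lie below all VitC+ points in Mgl2, Niban3, Clec10a, Rerg and Tmem178 and above them in Inhbb, Mt2, Fnip2, Gpr176 and Klf15.

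By gene list, counts are to be read against the 7.96% lower and 5.5% higher of all genes. Bone60 had 22 of 56 tested genes lower and 2 higher, mineralization 8 of 18 lower and 2 higher, osteoblast transcription factors 3 of 22 lower and cartilage matrix 5 of 11 lower, with 0 higher in the last 2 by limma (also 0 at an unadjusted p under 0.05). The study had applied Bone60 to these libraries, so its count is not independent evidence of a direction. Bglap fell from 2711, 1164 and 1606 RPKM in VitC+ to 11.5, 8.57 and 9.13 in VitC+/- libraries (log2 change -7.54, SE 0.71, adjusted p = 0.000724), and Dlx3 had a change of -2.17 (SE 0.59, adjusted p = 0.0411). The Dlx3 call was lost in 8 of 16 alternatives, also without WT replicate 3 or without VitC+ replicate 1 (limma adjusted p up to 0.165). Runx2, at 7.59, 11.6 and 14.8 RPKM in VitC+ and 7.45, 5.58 and 9.32 in VitC+/- libraries, did not pass the threshold (log2 change -0.69, SE 0.20, adjusted p = 0.0532). WT libraries, at 1.01 to 6.91 RPKM for Dlx3 and 6.31 to 7.01 for Runx2, overlapped those of VitC+/- femurs. For Bglap they were at 153 to 1278 RPKM, above all VitC+/- values. Of osteoclast genes, 8 of 16 were higher and 0 lower, among them Ctsk, the collagen protease cathepsin K, which had 5 femur-absent regions and a log2 change of 1.27 (SE 0.29, adjusted p = 0.0224), and Clcn7 (log2 change 0.82, SE 0.16, adjusted p = 0.0126). The Ctsk call was lost in 6 of 16 alternatives and that of Clcn7 in 3, both also without WT replicate 3 and VitC+ replicate 1. Only 7 of 31 craniofacial genes, 16 of 39 Hox genes and 2 of 32 neuronal genes were expressed enough to be tested, with 1 higher among the craniofacial, 2 lower among the Hox and 0 called among the neuronal genes. The remaining lists had 3 of 33 lower and 0 higher (fibrillar matrix), 3 of 36 lower and 5 higher (TGF-beta and BMP), 3 of 31 lower and 2 higher (Wnt), 0 of 46 lower and 5 higher (actin), 0 of 18 lower and 2 higher (adipocyte), 0 of 15 in either direction (skeletal muscle) and 0 of 6 lower and 1 higher (TET and DNMT). Summed skeletal muscle RPKM ranged from 12.1 to 761 among VitC+/- libraries and from 34.7 to 1958 among VitC+ libraries, so that muscle varied within the groups. Without WT replicate 3 and VitC+ replicate 1, Bone60 had 5 of 55 genes lower, mineralization 2 of 18 lower, osteoclast 1 of 16 higher and, blood and marrow aside, each other list at most 1 call. Of all genes, 1.4% were lower and 0.683% higher in this setting. At an unadjusted p under 0.05, where limma called 0 after adjustment, 5 fibrillar matrix genes were higher, 2 actin and 1 adipocyte genes lower and 1 neuronal gene higher, and there were 0 such genes in the skeletal muscle list and 0 lower ones among osteoclast, craniofacial and TET and DNMT genes and 0 higher ones among Hox genes.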

How the data were processed

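Peak lists of hMeDIP-seq, in which DNA with 5hmC is enriched with an antibody and sequenced, and of histone ChIP-seq were used together with femur RNA-seq. BWA mapping to mm10 and MACS2 peak calling on pooled samples, at a stated FDR of 0.05, were done by the authors. Each peak has a fold enrichment, a ratio over the local background, and a -log10 q, both as deposited. The pileup at the summit is a deposited signal of the MC3T3-E1 5hmC lists alone. Read depth of the lists is unknown. The histone lists reach down to a -log10 q of 1.01, so that they also hold peaks above that FDR, and their day is given as 28 in the labels but differently in the methods. Femur reads had been aligned with STAR, and the deposited values are RPKM.

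Genes and sequence were taken from RefSeq of GRCm38.p6, within whose chromosomes all peaks ended. A region is in a promoter when its midpoint lies within 1 kb of the TSS of a coding or lncRNA gene, otherwise in an exon, an intron or between genes. Regions are counted near a gene up to 30 kb from its TSS and were joined into groups over gaps of up to 12.5 kb. Shares carry Wilson 95% intervals for counting error. No test between peak classes was made, as there is 1 pooled list per group.

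A median-of-ratios factor was applied to the RPKM values, 0.5 was added and log2 taken, and limma with trend was fitted over all 9 libraries for genes that reached an RPKM of 1 in 3 or more of them, without the 69 entries that share a name. P-values are two-sided and adjusted by Benjamini-Hochberg, with calls at 0.05, and measure the spread between these samples. Of 20558 RefSeq coding genes, 19357 matched an entry.

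The regions and gene lists were chosen with earlier results of these data known. Named are the 10 regions with the highest -log10 q, the strongest in a promoter and in an exon, the 5 largest groups, the 15 genes with the most regions near, up to 4 genes per list, and the 5 largest falls and 5 largest rises among genes with at least 5 regions near, past the threshold and with groups that do not overlap. Bone60 comes from source data of the paper, and the other lists were written by hand. Alternatives changed thresholds, overlap, window, gene models, pseudocount, filter, scaling and libraries. Interval steps and limma were tested on simulated data. Versions were limma 3.58.1 under R 4.3.3, and pandas 2.3.3, scipy 1.17.1, numpy 2.4.6 and matplotlib 3.10.9 under Python 3.11.15. RNA-seq of Tet femurs, input DNA and H3K27ac data were not used here.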

Additional observations from a re-analysis of the deposited data

How the results depend on the processing

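The number of regions followed the rule itself. It was 14056 at a -log10 q of at least 10, 51059 with no threshold, 54494 when a peak was removed only if at least 50% of it was covered, and 14058 when any peak of the 3 lists within 1 kb removed it. The share that overlapped H3K27me3 of VitC- cells was 6.45% for regions with a -log10 q of at least 10 and 6.30% when 50% of a region had to be covered. The share that overlapped H3K9me3 was 3.90% with histone peaks of a -log10 q of at least 1.3, 4.78% for the stronger regions and 3.29% with 50% covered. With coding genes only, 48.0% of regions lay in genes, and over whole peaks the median CpG number per 100 bp was 1.19, against 1.39 in femur-shared gained peaks and 1.18 in kept peaks.

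Of genes near the regions, 290 were lower and 239 higher in VitC+/- femurs with a 10 kb window (of 3882 tested), 275 and 270 with a region within the gene body (of 4158) and 278 and 247 near regions with a -log10 q of at least 10 (of 4118). These are 7.47% and 6.16%, 6.61% and 6.49%, and 6.75% and 6.00%, against 7.96% and 5.5% of all genes. With RPKM unscaled, 192 were lower and 304 higher, which turned the balance of directions. Over all 12571 genes the balance turned likewise, to 405 lower and 472 higher, and their median shifted from 0.01 to 0.13 on the log2 scale. Leaving out 1 library gave 154 to 672 lower and 92 to 620 higher, and 327 to 1283 lower and 151 to 1002 higher over all genes. The counts were under the main ones by over 1.5 times without WT replicate 3 (336 and 256), VitC+ replicate 1 (212 and 170), replicate 2 (163 and 92) or replicate 3 (164 and 133), and VitC+/- replicate 1 (154 and 104). Over all genes they were 674 and 417, 445 and 268, 345 and 151, 347 and 215, and 327 and 162 in the same order, against 1001 and 691 in the main fit. Without WT replicate 3 and VitC+ replicate 1, chosen after seeing the data, 81 were lower and 51 higher, and 174 and 85 over all genes. With the replicate block, 665 were lower and 557 higher, and 1264 and 907 over all genes. However, the replicate numbers were not found to pair the libraries, as deviations of same-numbered VitC+ and VitC+/- libraries from their group means correlated at -0.07, 0.06 and 0.37. Of the named genes past the threshold, Mgl2, Niban3, Tmem178, Fnip2, Mt2, Bglap and Bglap2 kept the call in all 16 alternatives, Gpr176 in 15, Cd79b in 15, Clcn7 in 13, Rerg in 12, Inhbb in 11, Ctsk in 10 and Clec10a, Dlx3 and Plin4 in 8, while Ggt5 kept it in 3. Klf15 kept it in 4 and lost it in 9, and was not tested whichever VitC+/- library was left out, as it then missed the filter. None of these named genes was reversed. The causes were not tested.

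Peaks carry no replicate error, and a femur peak under the caller's threshold counts as absent. The femur holds cells that the culture lacks, and the mice and the culture differ in age, VitC supply and number of pooled samples, which cannot be told apart from the difference of tissue. Femur RNA stands for bulk bone and not for MC3T3-E1 cells, whose RNA was not used here.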

Other observations

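Per chromosome, femur-absent regions made up 14.6% of VitC+ peaks on chromosome 8 to 19.1% on chromosome 2. The VitC+ list also held 2883 peaks at the threshold on chromosomes X and Y, which the rule leaves out. Omd, with 13 regions the osteoblast-lineage gene with the most, was at 9.84, 6.71 and 23.4 RPKM in VitC+ and at 2.45, 1.61 and 6.79 in VitC+/- femurs, with groups that overlapped and no call (log2 change -1.89, SE 0.74, limma adjusted p = 0.116).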
